A study of Mus musculus with 18 samples.

Results

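The 9 genes Spi1, Cebpa, Cebpb, Irf8, Maf, Mitf, Klf4, Runx1 and Bhlhe40 encode transcription factors that establish or maintain the macrophage lineage, and they were followed through RNA-seq libraries of bone marrow-derived macrophages (BMDMs). They were chosen by symbol, 9 of 49315 counted genes, and each symbol was matched to its Ensembl identifier on the mouse genome build GRCm38. BMDMs were grown from marrow in medium with L929-conditioned medium, which supplies macrophage colony-stimulating factor. They came from HDAC3f/f mice, called WT in the labels, or from M-HDAC3-/- mice, called HDAC3 KO in the labels and HDAC3-/- here. Both genotypes carry loxP sites around exon 7 of Hdac3, the gene of a histone deacetylase, on a C57BL/6J background. The M-HDAC3-/- mice also carry LysM-Cre, whose recombinase is made from the Lyz2 promoter and is therefore limited to myeloid cells. BMDMs of each genotype received no cells, or human K562 leukemia cells for 45 min, after which they were washed and kept for 5 h. The K562 cells were non-apoptotic (NACs) or had been made apoptotic (ACs) by UVB light for 15 min and a wait of 2 h. There were 3 biological replicates in each of 6 groups, 18 libraries in all, and the comparisons ask whether the HDAC3 genotype, or contact with ACs or NACs, changed these factors.

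PU.1, the product of Spi1, is an ETS factor that opens macrophage enhancers and switches on receptors such as the one encoded by Csf1r. C/EBPα (Cebpa) and C/EBPβ (Cebpb) bind many of the same enhancers, the first chiefly during commitment of myeloid progenitors and the second also during inflammation. IRF8 joins PU.1 to favour the monocyte over the granulocyte fate, and RUNX1 prepares Spi1 for expression in blood progenitors. KLF4 drives monocyte differentiation, c-MAF (Maf) restrains self-renewal of mature macrophages, MITF is a lysosome and osteoclast regulator, and BHLHE40 is a repressor that permits macrophage proliferation.

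The libraries held 4704491 to 26421267 counts on genes, with a median of 16477929. All 18 markers of macrophages on a fixed list had a median above 10 CPM (counts scaled to a common library size), and their summed level was 8819 to 26148 CPM. Csf1r ranged from 1169 to 6793 CPM. Of the other marker lists, granulocyte genes summed to 263 to 1335 CPM, dendritic cell genes to 82.7 to 1816 CPM, mostly Cd74 and H2-Ab1, and fibroblast genes to 9.47 to 298 CPM. Mast cell, B cell and mouse erythroid genes summed to at most 6.89, 89.3 and 85.3 CPM, with Cma1 and Igll1 at 0 in 17 libraries and Rag1 at 0 in 18. Blnk and Cd79b of the B cell list were counted in every library, at up to 82.7 and 12.9 CPM. Hdac3 did not separate the labels. It ranged from 3.38 to 48.7 CPM in libraries labelled HDAC3f/f and from 4.66 to 74.6 CPM in libraries labelled HDAC3-/-, and the counts do not resolve its exon 7, so every direction below is between labels. The libraries also differed in how strongly gene levels followed the GC content of the transcripts. This GC trend, the Spearman correlation of each gene's deviation from its mean with its GC content, ran from -0.60 to 0.59. It was -0.60 to -0.40 in HDAC3f/f untreated BMDMs and 0.15 to 0.59 in HDAC3-/- untreated BMDMs. With NACs it was -0.21 to 0.42 in HDAC3f/f and -0.49 to -0.32 in HDAC3-/- libraries. With ACs it was -0.40 to 0.45 in HDAC3f/f and -0.29 to 0.48 in HDAC3-/- libraries. In bulk RNA, fewer cells that express a gene and less of its RNA per cell cannot be told apart. The library of HDAC3-/- untreated replicate 1 was the shallowest and had the lowest mean correlation with the other libraries of its group, 0.879, against up to 0.970 elsewhere.

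Each gene is protein-coding. Spi1 (ENSMUSG00000002111) lies at chr2:91082390-91115756, Cebpa (ENSMUSG00000034957) at chr7:35119293-35121928, Cebpb (ENSMUSG00000056501) at chr2:167688915-167690418, Irf8 (ENSMUSG00000041515) at chr8:120736358-120756694, and Mitf (ENSMUSG00000035158) at chr6:97807052-98021349. Bhlhe40 (ENSMUSG00000030103) lies at chr6:108660629-108666925, and all of these are on the plus strand. Maf (ENSMUSG00000055435) at chr8:115682942-115707794, Klf4 (ENSMUSG00000003032) at chr4:55527143-55532466 and Runx1 (ENSMUSG00000022952) at chr16:92601466-92826149 are on the minus strand. Cebpb shares 312 of its 1504 exon bases with Tmem189 on the opposite strand. The strand setting of the counting is not given in the sources used here, so reads from that stretch could have been counted for either gene or dropped. The other 8 genes share at most 5.34% of their exon bases with another gene, and the overlapping genes had at most 23 counts in any library.

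Promoter windows, from 250 bases before to 50 bases after a start site, were available from RefSeq (GRCm38.p6) for 6 of the 9 genes. Those of Cebpa, Mitf and Klf4 are shown because these are the genes that passed a planned test below. They were searched on both strands for the E-box CACGTG that MITF and BHLHE40 bind, GAGGAAG for PU.1, TTNNGNAA for C/EBP factors, CACACCC for KLF factors and TGTGGT for RUNX factors. Capitals mark the matches, lower case is the rest of the window, and all 3 read 5′ to 3′ on the strand of the gene.
Cebpa, chr7:35119043-35119342, plus strand: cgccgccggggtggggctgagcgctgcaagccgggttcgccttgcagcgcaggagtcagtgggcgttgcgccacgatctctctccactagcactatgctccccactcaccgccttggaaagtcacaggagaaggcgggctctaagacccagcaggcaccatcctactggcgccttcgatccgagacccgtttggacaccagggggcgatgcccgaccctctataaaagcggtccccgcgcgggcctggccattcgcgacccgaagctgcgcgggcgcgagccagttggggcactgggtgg
Mitf, the most upstream of 3 start sites, chr6:97806808-97807107, plus strand: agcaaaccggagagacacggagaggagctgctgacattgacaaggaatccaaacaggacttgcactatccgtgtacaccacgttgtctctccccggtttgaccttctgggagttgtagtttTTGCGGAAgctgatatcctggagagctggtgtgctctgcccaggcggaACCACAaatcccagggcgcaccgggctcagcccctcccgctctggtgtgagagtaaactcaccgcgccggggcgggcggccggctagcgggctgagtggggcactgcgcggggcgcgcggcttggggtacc
Klf4, chr4:55532426-55532725, minus strand: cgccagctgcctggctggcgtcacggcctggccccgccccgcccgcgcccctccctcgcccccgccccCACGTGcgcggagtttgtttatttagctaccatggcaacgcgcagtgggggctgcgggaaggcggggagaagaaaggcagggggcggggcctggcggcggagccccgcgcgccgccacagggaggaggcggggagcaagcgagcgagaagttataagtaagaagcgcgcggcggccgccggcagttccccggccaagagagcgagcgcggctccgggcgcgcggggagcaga

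The Klf4 window holds 1 E-box, which 7.15% of 32817 mouse windows of this length hold. The Mitf window holds 1 C/EBP match, which 40.7% of windows hold, and 1 RUNX match, which 16.8% hold. The Cebpa window holds none of these letters. Of the windows not shown, a Runx1 window at chr16:92826025-92826324 holds 1 E-box and 2 RUNX matches, and the second Mitf window, at chr6:97929567-97929866, holds 1 C/EBP match. PU.1 letters were in none of the 10 windows of the 6 genes, against 13.6% of all windows, and KLF letters likewise, against 7.95%. A match is a description of the letters only, and the counts sum over all start sites of a gene. The windows of Cebpa, Mitf and Klf4 contain 67.3%, 62.7% and 74.3% G or C.

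On the scale of CPM per kb of exon, which allows genes to be compared, Spi1 was the highest of the 9 at 349 ± 122 (SD, n = 18 libraries). Cebpa followed at 178 ± 100 (SD, n = 18), then Irf8 at 86.4 ± 26.2, Maf at 47.4 ± 38.4 and Cebpb at 17.8 ± 10.1 CPM per kb. The lower 4 were Bhlhe40 at 4.90 ± 2.68, Mitf at 4.12 ± 1.90, Runx1 at 3.39 ± 0.617 and Klf4 at 1.99 ± 1.10 CPM per kb. Spi1 was above Cebpa, and Cebpa above Irf8, in 18 of 18 libraries, although their mean ± SD ranges overlapped. Cebpb and Bhlhe40 were the neighbours whose mean ± SD ranges did not overlap. Bhlhe40 exceeded Mitf in 9 of 18 libraries and Mitf exceeded Runx1 in 10 of 18, so the order of these 3 is not resolved. Among the 13662 genes expressed over all libraries, Spi1 stood at the 98.6th percentile of level per kb and Klf4 at the 46.4th.

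**Figure D1:**
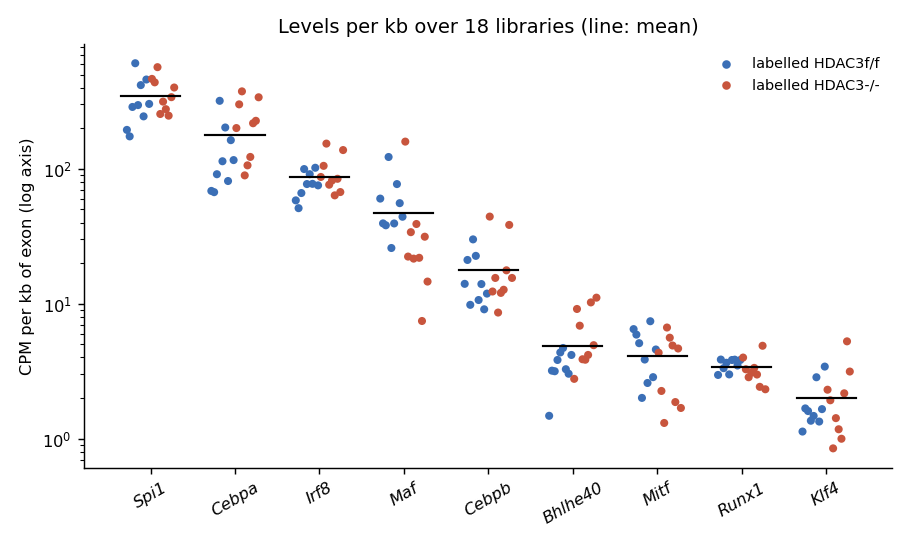
Level per kb of exon (vertical axis, CPM per kb, log scale) of the 9 factors, ordered by their mean. Each point is 1 of 18 libraries, blue where labelled HDAC3f/f and red where labelled HDAC3-/-, and the line is the mean; Spi1 lies around 349 and Klf4 around 1.99 CPM per kb.

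The factors differed in how far replicates spread. The SD of log2 CPM within groups was 0.29 for Runx1, 0.32 for Irf8 and 0.37 for Spi1, against a median of 0.59 over all expressed genes, and Runx1 stood at the 1.83rd percentile of that spread. Maf had a within-group SD of 0.93, the 83.5th percentile. Over all libraries Runx1 ranged 2.10-fold, Irf8 3.01-fold and Spi1 3.48-fold, whereas Maf ranged 21.3-fold. Runx1, Irf8 and Spi1 thus varied less between replicates than most genes, and Maf more.

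**Figure D2:**
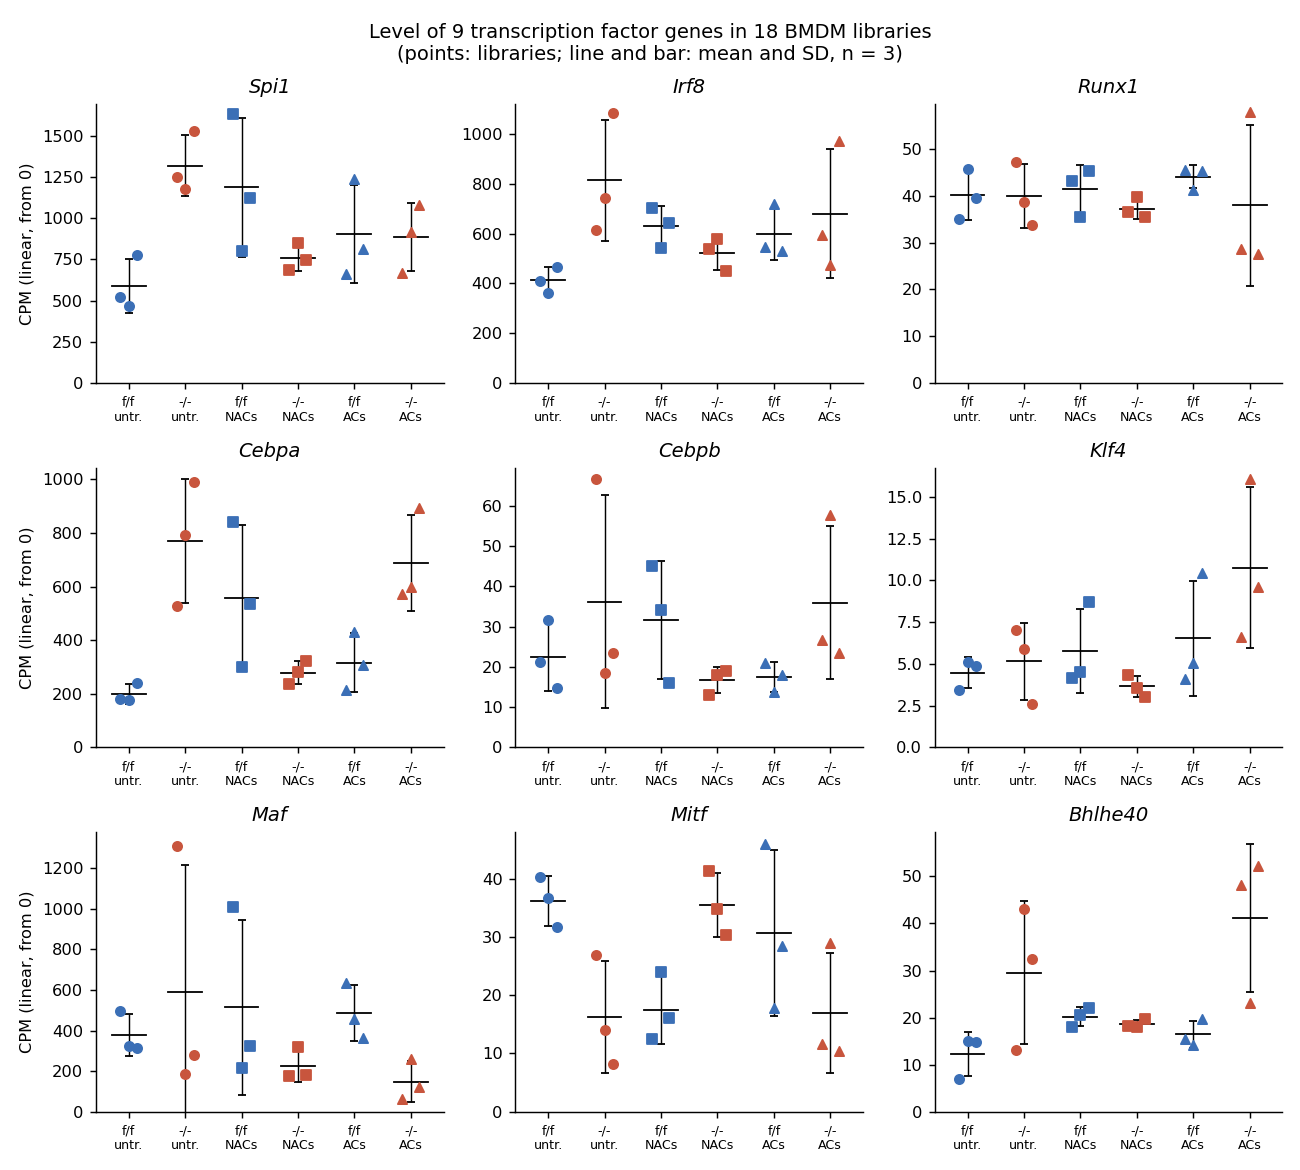
CPM of each factor (vertical axis, linear from 0) in 3 libraries of each of 6 groups, in blue for HDAC3f/f and red for HDAC3-/- labels, with the mean and SD of the group. Cebpa is at 529 to 989 CPM in HDAC3-/- untreated BMDMs and at 177 to 240.4 CPM in HDAC3f/f untreated BMDMs, and Runx1 lies between 27.5 and 57.8 CPM in all libraries.

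Without K562 cells, 1 of the 9 factors differed between the labels. Cebpa was 3.62-fold higher in HDAC3-/- BMDMs (edgeR quasi-likelihood test, Benjamini-Hochberg adjusted p = 0.0261), in a comparison where 11.6% of 12101 genes passed. Groups of 4 of the 9 did not overlap, against 40.9% of genes. With ACs, and with NACs, none of the 9 passed, against 3.75% of 12304 and 0.864% of 11923 genes, and at an unadjusted p under 0.05 the edgeR counts were 4 and 4 of 9, against 24.3% and 24.2% of genes. Groups of 4 of the 9 did not overlap with ACs and of 1 with NACs, against 28.3% and 26.9% of genes. The Wald test of DESeq2 called 4 factors in the untreated comparison, 2 with ACs and 0 with NACs, against 29.8%, 11.2% and 3.79% of genes. Averaged over the treatments, none passed by edgeR, 2 passed by DESeq2 and 2 had an unadjusted p under 0.05, against 1.44%, 10.1% and 21.8% of all genes.

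**Figure D3:**
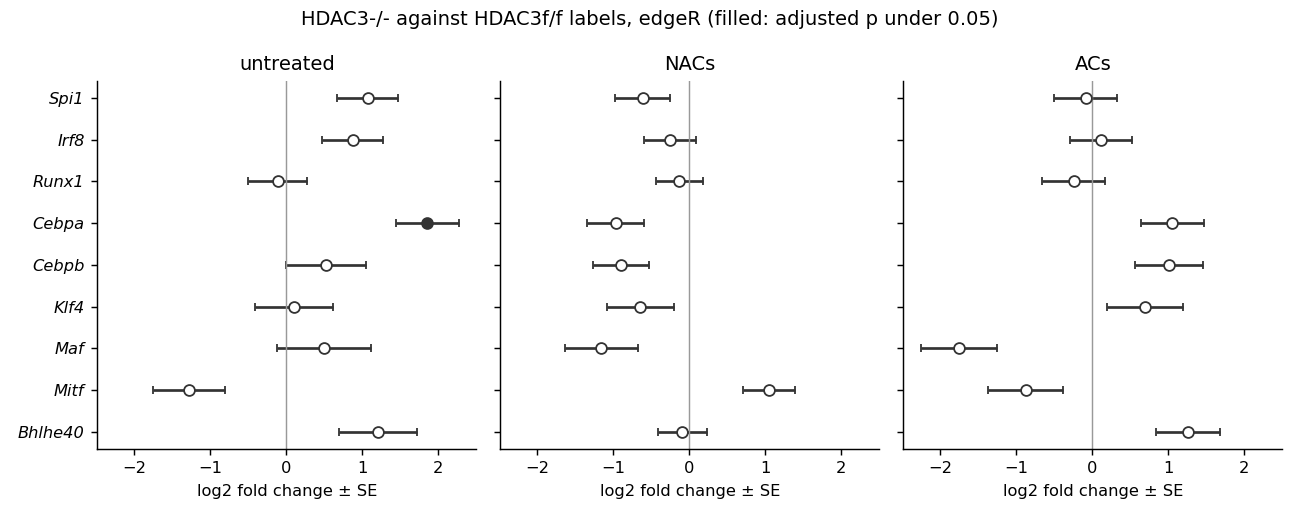
Log2 fold change of HDAC3-/- against HDAC3f/f labels (horizontal axis, with its standard error) for the 9 factors, untreated, with NACs and with ACs, from edgeR on 3 against 3 libraries. Filled points passed an adjusted p of 0.05, and Cebpa in untreated BMDMs, at 1.86, is the single filled point.

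Between treatments, 3 of the factors passed in at least 1 comparison, Cebpa, Mitf and Klf4. In HDAC3f/f BMDMs, NACs against no treatment raised Cebpa and lowered Mitf (1 higher and 1 lower of 9, where 4.19% and 4.33% of 11912 genes passed in those directions and 8.52% in all). NACs lowered Cebpa against no treatment in HDAC3-/- BMDMs (1 of 9, where 0.338% of 12143 genes were lower, 6.20% higher and 6.54% either). ACs against NACs raised Cebpa and Klf4 in HDAC3-/- BMDMs (2 of 9, where 2.65% of 12244 genes were higher, 4.73% lower and 7.38% either). None of the 9 passed between ACs and NACs in HDAC3f/f BMDMs or between ACs and no treatment in either genotype, where 0% of all genes passed by edgeR. In those 3 comparisons 0, 0 and 1 of the 9 had an unadjusted p under 0.05, against 4.16%, 12.7% and 14.5% of genes, and DESeq2 called 0 of the 9 in each, against 0%, 0.041% and 2.48% of genes. For ACs against no treatment in HDAC3-/- BMDMs, DESeq2 gave an adjusted p to 606 genes, among them 4 of the 9. In the other 3, DESeq2 called 3, 2 and 3 of the 9, against 20.5%, 20.7% and 11.9% of genes, in the order given above. The groups of 5, 4 and 5 of the 9 did not overlap in these, against 29.7%, 38.7% and 29.3% of genes. In the 3 comparisons with no call they did not overlap for 0, 1 and 1 of the 9, against 10.4%, 15.5% and 21.5%. These comparisons share libraries, since each group enters several of them.

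For PU.1, the general macrophage regulator, Spi1 was at 524, 469 and 775 CPM in HDAC3f/f untreated BMDMs and at 1250.5, 1179 and 1528 CPM in HDAC3-/- untreated BMDMs. With NACs it was at 1633, 799.6 and 1125 CPM in HDAC3f/f and at 687, 848 and 746 CPM in HDAC3-/- BMDMs. With ACs it was at 659.7, 1237 and 816 CPM in HDAC3f/f and at 668, 915 and 1079 CPM in HDAC3-/- BMDMs. The untreated groups did not overlap, which held for 40.9% of all genes tested, whereas the groups with NACs or ACs did. The untreated difference, log2 1.07 (SE 0.40), did not pass by edgeR (adjusted p = 0.0816), passed by DESeq2 (adjusted p = 0.0141), and had an edgeR adjusted p of 0.0216 without HDAC3-/- untreated replicate 1. A fit that corrects each library for the GC content and length of the genes, called the GC offset here, gave 0.15 (adjusted p = 0.860).

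For IRF8, the partner of PU.1, Irf8 was at 412, 361 and 467 CPM in HDAC3f/f untreated BMDMs and at 614, 742 and 1085 CPM in HDAC3-/- untreated BMDMs. These groups were apart, but the difference of log2 0.87 (SE 0.40) did not pass by edgeR (adjusted p = 0.132) and passed by DESeq2 (adjusted p = 0.0405). Markers of dendritic cells, which also make Irf8, were apart too, at 82.7 to 488 CPM in HDAC3f/f and 493 to 1816 CPM in HDAC3-/- untreated BMDMs in sum, with 0 of 3 tested called by edgeR and 2 by DESeq2. Most of that sum was Cd74 and H2-Ab1, which macrophages also make. Of the other markers on the list, Flt3, Zbtb46 and Batf3 reached 0.502, 1.94 and 4.09 CPM in their highest library. The part of these markers in the Irf8 and Cebpa differences was not tested. Without HDAC3-/- untreated replicate 1 the adjusted p was 0.0302 by edgeR, and with the offset the value was -0.12. With NACs Irf8 was at 703, 544 and 644 CPM in HDAC3f/f and 538, 578 and 449 CPM in HDAC3-/- BMDMs. With ACs it was at 546, 719 and 532 CPM in HDAC3f/f and 595, 475 and 972 CPM in HDAC3-/- BMDMs, and in both cases the labels overlapped.

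For RUNX1, which acts upstream of Spi1 in blood progenitors, group means stayed within 37.1 to 44.0 CPM. Runx1 was at 35.1, 45.6 and 39.4 CPM untreated, 43.2, 35.4 and 45.3 CPM with NACs and 45.6, 41.2 and 45.3 CPM with ACs in HDAC3f/f BMDMs. In HDAC3-/- BMDMs it was at 47.2, 38.7 and 33.8 CPM untreated, 36.5, 39.6 and 35.4 CPM with NACs and 28.7, 57.8 and 27.5 CPM with ACs. It had an unadjusted p of at least 0.52 in each of the 12 comparisons, and groups overlapped in each pair compared. The library of HDAC3-/- ACs replicate 2 held the highest Runx1 value of all, while the other 2 of its group held the lowest.

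For C/EBPα, the factor of myeloid commitment, Cebpa was at 181, 177 and 240.4 CPM in HDAC3f/f untreated BMDMs and at 529, 792 and 989 CPM in HDAC3-/- untreated BMDMs. Every HDAC3-/- library was above every HDAC3f/f library, and the log2 fold change was 1.86 (SE 0.42). Granulocyte markers, which accompany this factor in granulocyte progenitors, overlapped between these groups at 263 to 1335 and 528 to 1109 CPM in sum. By edgeR 0 of 12 passed, 1 had an unadjusted p under 0.05 and DESeq2 called 1, against 11.6%, 37.2% and 29.8% of all genes. B cell markers did not overlap, at 24.8 to 33.9 CPM in HDAC3f/f and 47.5 to 89.3 CPM in HDAC3-/- untreated BMDMs in sum, mostly Blnk, with 0 of 4 tested called by edgeR and 2 by DESeq2, and their part in the Cebpa result was not tested. Over the 18 libraries the B cell marker Cd79b was at 1.32 to 12.9 CPM, and Cd79a and Ms4a1 reached 2.51 and 2.98 CPM. Rag1 was at 0 in every library. The call was lost when any 1 of 5 libraries was left out, the exception being HDAC3-/- untreated replicate 1, with log2 fold changes of 1.71 to 2.00 and an adjusted p of up to 0.123. The GC trends of the 2 groups do not overlap either, and with the GC offset the difference was 0.78 in log2 (adjusted p = 0.301), where 0 genes in all passed.

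With NACs, Cebpa was at 841, 300.0 and 534 CPM in HDAC3f/f BMDMs, above every untreated library of that genotype, higher by 1.42 in log2 (SE 0.42), and passed by edgeR (adjusted p = 0.0320). Cebpa was at 236, 279.8 and 323 CPM in HDAC3-/- BMDMs with NACs, below every untreated library, a change of -1.28 in log2 (SE 0.33) that passed by edgeR (adjusted p = 0.0489). The direction was thus opposite in the 2 genotypes, and the interaction, added after the treatment effects had been seen, was -2.59 in log2 (SE 0.54, adjusted p = 0.00199 by edgeR, where 34.8% of 13005 genes passed). With any 1 of the 12 libraries left out the interaction passed, at -3.06 to -2.44. Of 12 granulocyte markers 1 passed by edgeR in this interaction, Ltf at -1.85 in log2. Markers of other cells also passed in the direction of Cebpa, 3 of 5 B cell markers with Cd79a at -3.98, 1 of 3 dendritic cell markers, Batf3 at -2.79, and 2 of 9 fibroblast markers with Thy1 at -3.71, and their part in the result was not tested. With the offset the 3 values were 0.40 (adjusted p = 0.538), -0.37 (adjusted p = 0.572) and -0.68 (adjusted p = 0.327). The GC trend moved the same way as Cebpa in these groups, and its part in the result was not tested beyond this offset. The rise with NACs in HDAC3f/f BMDMs was lost without untreated replicates 1 or 2 or NACs replicates 1 or 3, with log2 fold changes of 0.96 to 1.76 and an adjusted p of up to 0.265. The fall in HDAC3-/- BMDMs was lost without any library except untreated replicate 1, at -1.52 to -1.18 with an adjusted p of up to 0.251.

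With ACs, Cebpa was at 214, 430.0 and 306 CPM in HDAC3f/f BMDMs and at 574, 598 and 894 CPM in HDAC3-/- BMDMs. The labels did not overlap, as for 28.3% of genes, and the granulocyte marker Elane was lower in HDAC3-/- BMDMs (-2.26 in log2, the 1 of 11 that passed by edgeR). B cell markers were higher there, at 26.3 to 36.6 CPM in HDAC3f/f and 64.5 to 76.8 CPM in HDAC3-/- BMDMs in sum. Of the 4 tested, edgeR called 0 and DESeq2 called 1, and their part in the Cebpa difference was not tested. The log2 difference of Cebpa of 1.06 (SE 0.42) did not pass (adjusted p = 0.128 by edgeR, 0.0646 by DESeq2). It was 1.52 and passed with the offset (adjusted p = 0.00784). Against NACs, ACs raised Cebpa in HDAC3-/- BMDMs by 1.31 in log2 (SE 0.38, edgeR adjusted p = 0.0341), with no overlap between the groups, and the offset kept the call at 1.17 (adjusted p = 0.0280). Without a single library the value was 1.11 to 1.41, and the call was kept only without HDAC3-/- ACs replicate 2, with an adjusted p of up to 0.170 otherwise. Of 12 granulocyte markers 1 passed by edgeR there, Ltf at 1.37 in log2, against 7.38% of all genes, and 5 of 9 fibroblast markers rose by 1.86 to 2.48 in log2. B cell markers summed to 25.1 to 33.8 CPM with NACs and 64.5 to 76.8 CPM with ACs, with 1 of 4 called, Blnk at 1.34. Dendritic cell markers summed to 109 to 546 and 612 to 966 CPM, with 0 of 3 called. Of 7 osteoclast genes 2 rose, Dcstamp by 2.28 and Acp5 by 1.65. The part of all these markers in the Cebpa result was not tested. In HDAC3f/f BMDMs the same comparison gave -0.78 (SE 0.42, adjusted p = 0.898). The difference between the 2 genotypes was 2.12 (SE 0.56), which did not pass by edgeR (adjusted p = 0.0659, where 0.0765% of 13076 genes passed and 20% had an unadjusted p under 0.05), passed by DESeq2 (adjusted p = 0.0110, where 6.33% passed), and was 1.74 with the offset (adjusted p = 0.0289 by edgeR). Averaged over treatments, Cebpa was higher in HDAC3-/- BMDMs by 0.69 in log2 (SE 0.23, adjusted p = 0.0851 by edgeR, 0.0292 by DESeq2, and 0.0297 at 0.78 with the offset by edgeR).

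For C/EBPβ, the inflammatory member of the family, Cebpb was at 21.1, 31.8 and 14.8 CPM untreated, 45.1, 34.1 and 16.0 CPM with NACs and 21.1, 13.7 and 17.9 CPM with ACs in HDAC3f/f BMDMs. HDAC3-/- BMDMs had Cebpb at 66.6, 18.5 and 23.4 CPM untreated, 12.9, 18.1 and 19.1 CPM with NACs and 26.6, 57.8 and 23.4 CPM with ACs. A single library stood high in HDAC3-/- untreated and in HDAC3-/- ACs BMDMs, and the ACs groups of the 2 genotypes did not overlap. The difference with ACs, log2 1.01 (SE 0.45), did not pass (adjusted p = 0.174 by edgeR) and was 2.03 with the offset (adjusted p = 0.0360). The offset was the 1 of 8 alternatives that called it, and with the replicate block added the edgeR adjusted p was 0.0861. Of the 6 fits that left out 1 library, 0 called it, at 0.49 to 1.28 in log2. The interaction of genotype with ACs or NACs was 1.96 (SE 0.59, adjusted p = 0.0946 by edgeR, 0.0353 by DESeq2, and 0.130 with the offset by edgeR). Cebpb had 182 to 1374 counts per library and, at 67.2%, the highest GC content of the 9 transcripts.

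For KLF4, a driver of monocyte differentiation, Klf4 was at 4.33, 3.58 and 3.05 CPM with NACs and at 6.62, 16.1 and 9.59 CPM with ACs in HDAC3-/- BMDMs. All 3 libraries with ACs were above all 3 with NACs, and the difference of 1.58 in log2 (SE 0.45) passed by edgeR (adjusted p = 0.0303) and DESeq2 (0.0123). Klf4 is also made by fibroblasts, whose markers summed to 14.0 to 64.2 CPM with NACs and 109 to 298 CPM with ACs in these libraries. In that comparison 5 of 9 fibroblast markers tested rose, against 2.65% of all genes, including Col1a2 by 2.48 and Col3a1 by 2.26 on the log2 scale, and their part in the Klf4 result was not tested. Of the 6 fits that left out 1 library, the one without HDAC3-/- ACs replicate 2 kept the call (adjusted p = 0.04995). The other 5 lost it, with an adjusted p of up to 0.144, and the log2 fold changes were 1.14 to 1.83. With the offset the value was 1.44 (adjusted p = 0.0901). In HDAC3f/f BMDMs Klf4 was at 4.14, 4.50 and 8.70 CPM with NACs and 4.09, 5.05 and 10.4 CPM with ACs, which overlap. Untreated it was at 3.44, 5.11 and 4.89 CPM in HDAC3f/f and 7.03, 5.87 and 2.59 CPM in HDAC3-/- BMDMs. Klf4 had 28 to 382 counts per library, the fewest of the 9.

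For c-MAF, which marks non-dividing mature macrophages, Maf was at 635, 459 and 364 CPM with ACs in HDAC3f/f BMDMs and at 61.4, 259 and 120.4 CPM with ACs in HDAC3-/- BMDMs. The groups did not overlap, and the log2 difference of -1.75 (SE 0.50) was 3.37-fold lower in HDAC3-/- BMDMs but missed the threshold by edgeR (adjusted p = 0.0546) and passed by DESeq2 (adjusted p = 0.0128). By edgeR it passed without HDAC3f/f ACs replicates 2 or 3 or without HDAC3-/- ACs replicate 2, and with the offset at -2.21 (adjusted p = 0.0436). It also passed with the replicate block at -1.96 (adjusted p = 0.0226), with the size factors of DESeq2 (0.0477) and with no filter (0.0130), and did not with library totals alone (0.0657), the offset with the block (0.0603) or all 18 libraries in one fit (0.121). The range without single libraries was -2.44 to -1.36, with adjusted p from 0.00762 to 0.323. Untreated, Maf was at 496, 325 and 314 CPM in HDAC3f/f and at 1311, 184 and 279.6 CPM in HDAC3-/- BMDMs. With NACs it was at 1009, 213 and 324 CPM in HDAC3f/f and 178, 321 and 181 CPM in HDAC3-/- BMDMs. Replicate 1 stood far above its mates in HDAC3-/- untreated and in HDAC3f/f NACs libraries, and the labels overlapped in both treatments.

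For MITF, the lysosomal and osteoclast regulator, Mitf was at 40.2, 36.6 and 31.6 CPM in HDAC3f/f untreated BMDMs and at 12.4, 23.9 and 16.0 CPM with NACs. The groups were apart and Mitf fell by 1.11 in log2 with NACs (SE 0.38), which passed by edgeR (adjusted p = 0.0476) and DESeq2 (0.0357). In HDAC3-/- BMDMs Mitf was at 26.9, 14.0 and 8.10 CPM untreated and at 41.3, 34.7 and 30.4 CPM with NACs. These groups were also apart, in the other direction, and the log2 difference of 1.30 (SE 0.47) did not pass (adjusted p = 0.107 by edgeR, 0.00478 without HDAC3-/- untreated replicate 1). The interaction of genotype with NACs or no treatment was 2.56 in log2 (SE 0.60, edgeR adjusted p = 0.00376) and passed with any 1 of the 12 libraries left out, at 1.96 to 2.89. With the offset it was 1.70 (adjusted p = 0.0540), with the offset and the replicate block 1.77 (adjusted p = 0.0492), and it passed in the other 6 alternatives. The fall with NACs in HDAC3f/f BMDMs was -0.72 with the offset (adjusted p = 0.211). That fall was also lost without HDAC3f/f untreated replicates 1 or 2 or NACs replicates 1 or 3, at -1.37 to -0.95 with an adjusted p of up to 0.244.

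With ACs, Mitf was at 46.0, 17.7 and 28.4 CPM in HDAC3f/f and at 11.6, 28.9 and 10.5 CPM in HDAC3-/- BMDMs, which overlap. Between the labels the log2 difference was -1.27 untreated (SE 0.48, adjusted p = 0.0809 by edgeR), where the groups were apart, and 1.05 with NACs (SE 0.34, adjusted p = 0.101 by edgeR), where they were also apart. By edgeR the first passed without HDAC3-/- untreated replicate 1 (adjusted p = 0.000158) and the second without HDAC3f/f NACs replicate 2 (adjusted p = 0.00713). ACs against NACs in HDAC3-/- BMDMs gave -1.04 (SE 0.42, adjusted p = 0.124 by edgeR, 0.000967 without HDAC3-/- ACs replicate 2). Mitf and Cebpa were thus high in different libraries. Over the 18 libraries their log2 CPM had a Pearson r of -0.90, and -0.80 for deviations from the group means, with libraries that share the GC trend.

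For BHLHE40, the repressor that permits macrophage proliferation, Bhlhe40 was at 6.95, 15.0 and 14.9 CPM in HDAC3f/f untreated and at 13.1, 43.1 and 32.4 CPM in HDAC3-/- untreated BMDMs, which overlap. With ACs it was at 15.4, 14.3 and 19.6 CPM in HDAC3f/f and at 48.2, 23.2 and 52.2 CPM in HDAC3-/- BMDMs, which did not overlap. With NACs it was at 18.0, 20.5 and 22.1 CPM in HDAC3f/f and at 18.3, 18.1 and 19.6 CPM in HDAC3-/- BMDMs, close together. The log2 difference with ACs was 1.26 (SE 0.42, adjusted p = 0.0863 by edgeR, 0.0303 by DESeq2), and passed by edgeR only without HDAC3-/- ACs replicate 2 (adjusted p = 0.0170). Untreated it was 1.21 (SE 0.51, adjusted p = 0.109 by edgeR, 0.0437 by DESeq2, and 0.00152 by edgeR without HDAC3-/- untreated replicate 1). ACs against NACs in HDAC3-/- BMDMs gave 1.15 (SE 0.40, adjusted p = 0.0708 by edgeR, 0.0389 by DESeq2, and 0.00232 by edgeR without HDAC3-/- ACs replicate 2). Averaged over treatments Bhlhe40 was 0.83 higher in log2 in HDAC3-/- BMDMs (SE 0.24, adjusted p = 0.0623 by edgeR, 0.0142 by DESeq2), and 0.60 with the offset (adjusted p = 0.124 by edgeR).

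The interaction of genotype with NACs or no treatment was the comparison in which most of the 9 passed, 3 of 9 where 34.8% of all genes did. Besides Cebpa and Mitf, Spi1 had -1.47 (SE 0.49, adjusted p = 0.0260 by edgeR), a call lost without HDAC3-/- NACs replicate 1 (adjusted p = 0.0679) and with the offset, at -0.07. Of the 8 alternatives that leave no library out, 5 called Spi1, and its log2 values over the 8 were -1.85 to -0.04. DESeq2 called 6 of 9, against 43.5% of genes. Without the offset, the median log2 value of the 9 was -1.03, beside 0.12 over all genes tested. The median over all genes was -0.28 to 0.70 in the 8 alternatives. With the offset Irf8 and Cebpb changed direction in this comparison, so no shared direction of the 9 is read from their median.

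**Figure D4:**
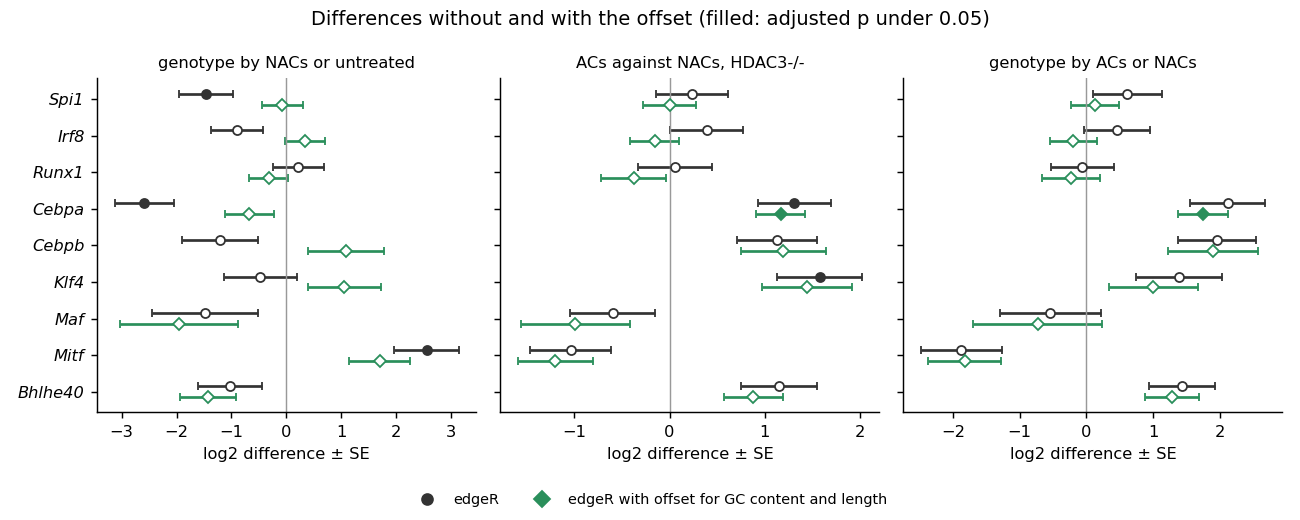
Log2 difference and its standard error (horizontal axis) of the 9 factors in 3 comparisons, by edgeR (black circles) and by edgeR with the GC offset (green diamonds), filled where the adjusted p is under 0.05. Cebpa moves from -2.59 to -0.68 in the interaction with NACs or no treatment and from 1.31 to 1.17 between ACs and NACs in HDAC3-/- BMDMs.

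The level of 4 factors followed the GC trend of the libraries closely. Pearson's r of log2 CPM with that trend over 18 libraries was 0.87 for Spi1, 0.88 for Cebpa, 0.89 for Irf8 and -0.89 for Mitf, whose transcripts hold 56.2%, 61.2%, 55.8% and 47.8% G or C. For the other 5 it was 0.56 for Bhlhe40, 0.17 for Klf4, 0.04 for Cebpb, 0.01 for Maf and -0.18 for Runx1. An absolute r above 0.8 was held by 14.9% of 13662 genes, with a median absolute r of 0.51. These are descriptions over libraries that share their group, and GC trend and group cannot be told apart where the groups' trends do not overlap, as between the untreated groups.

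**Figure D5:**
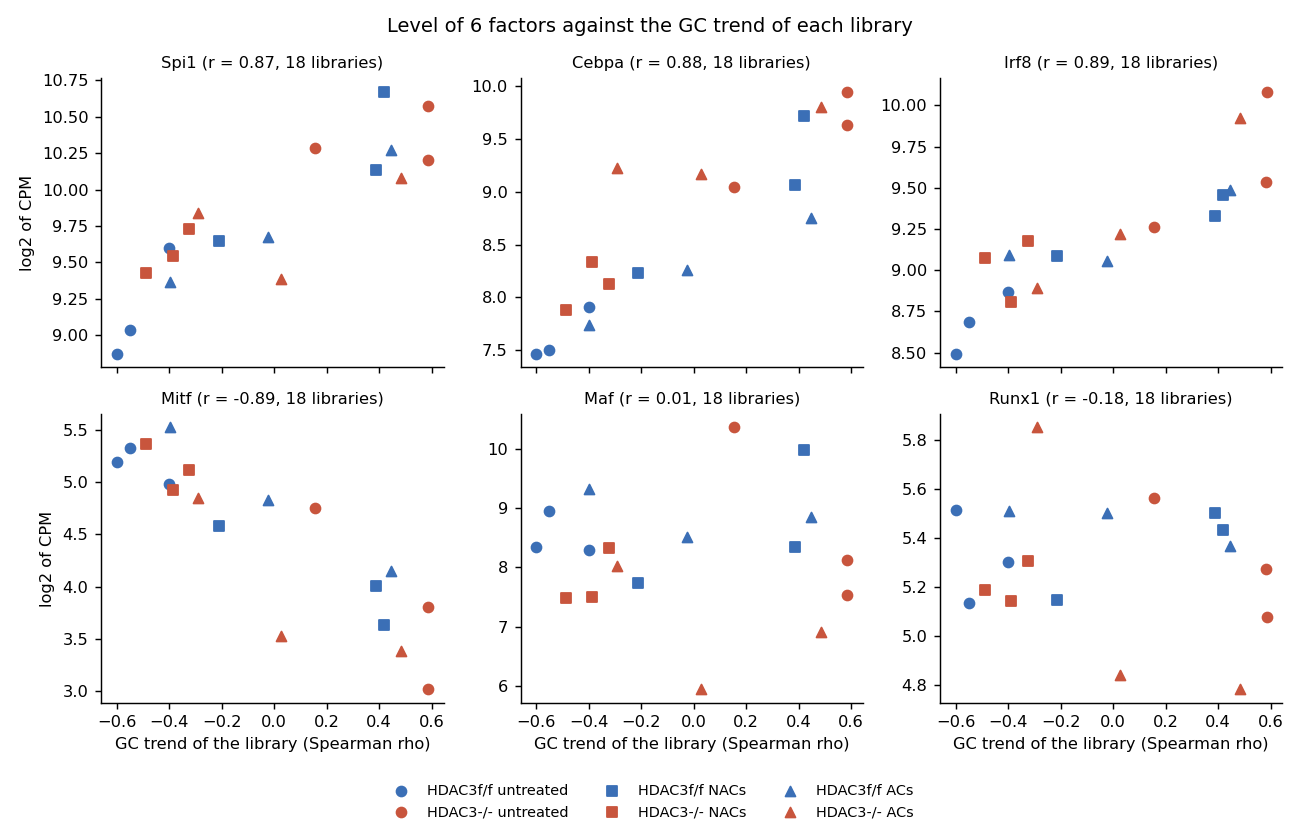
Log2 of CPM (vertical axis) of 6 factors against the GC trend of each of 18 libraries (horizontal axis, Spearman correlation), with blue for HDAC3f/f, red for HDAC3-/-, and circles, squares and triangles for untreated, NACs and ACs. Spi1, Cebpa and Irf8 rise along the axis (r of 0.87 to 0.89), Mitf falls (r of -0.89), and Maf and Runx1 show no such order.

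The genes with the pattern most like each factor were found over the 18 libraries among about 6774 genes with a mean of at least 10 CPM. For Spi1 they were Gm16286 (Pearson r 0.98), Mtx1 (0.98) and Spsb2 (0.98), and for Cebpa Tmem189 (0.98), Tcf25 (0.98) and Prr13 (0.97). Irf8 was nearest to Nuak2 (0.95), Slc3a2 (0.95) and Ptk2b (0.94), and Mitf to Zfp148 (0.96), Kpna4 (0.96) and 1700020I14Rik (0.96). Bhlhe40 was nearest to Adam8 (0.92), Daglb (0.89) and Itgax (0.89), and Runx1 to Larp4b (0.88), Purb (0.88) and Atp2b1 (0.85). Maf was nearest to Rpl38 (0.90), Mgmt (0.89) and Snrpe (0.89), Cebpb to Cox17 (0.85), Pabpn1 (0.85) and Zrsr2 (0.83), and Klf4 to Taok3 (0.74), Pim1 (0.72) and Lpl (0.72). Among the 9, Spi1 and Cebpa (r 0.84), Cebpa and Irf8 (0.82) and Spi1 and Irf8 (0.81) were high in the same libraries, whereas Mitf was high in different libraries from Irf8 (-0.83), Bhlhe40 (-0.72) and Spi1 (-0.71), and Maf from Bhlhe40 (-0.70). Spi1, Cebpa and Irf8 (r of 0.87 to 0.89) and Mitf (-0.89) also followed the GC trend of the libraries. The part of that trend in these correlations was not tested.

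Relatives of the 9 factors, a list of 26 ETS, C/EBP, IRF, MAF, MITF-family, KLF and RUNX genes and their partners, were tested in the same fits. Between the labels in untreated BMDMs, 3 of 25 rose and 1 fell, with Runx3 at 2.18, Elf4 at 1.68, Tfe3 at 1.58 and Fli1 at -1.60 on the log2 scale (adjusted p from 0.0419 to 0.0471 by edgeR). In this comparison 11.6% of all genes passed, and none with the offset, so these calls are lost there. DESeq2 called 10 of the list, against 29.8% of genes. Tfe3 encodes a close relative of MITF, and Fli1 an ETS factor of blood cells. With ACs and with NACs none of 25 passed between the labels by edgeR, 4 and 7 had an unadjusted p under 0.05, and DESeq2 called 1 and 2. Over all genes 3.75% and 0.864% passed by edgeR, 24.3% and 24.2% had such a p, and DESeq2 called 11.2% and 3.79%. By edgeR, between ACs and NACs in HDAC3-/- BMDMs Elf4 rose by 1.48, 1 of 25 against 7.38% of all genes. In the interaction of genotype with NACs or no treatment 13 of 25 passed by edgeR, 6 higher and 7 lower, where 34.8% of all genes did, and with the offset the calls over all genes went from 4530 to 1601. The list was led by Runx3 (-3.17), Irf4 (-3.15), Tfec (2.85) and Fli1 (2.63). The median of the list was within 0.29 of 0 on the log2 scale in every comparison.

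Of 13 to 15 other myeloid factors tested, at most 2 passed by edgeR and at most 3 by DESeq2 in any planned comparison. Both of these counts were for ACs against NACs in HDAC3-/- BMDMs, where 7.38% and 11.9% of all genes passed. Egr2, an immediate early gene of macrophages, was higher in HDAC3-/- BMDMs with ACs (2.13, adjusted p = 0.0240 by edgeR) and rose with ACs against NACs there (1.60), while Zeb2 fell (-1.40). Gata2, a stem and mast cell factor, was lower in HDAC3-/- BMDMs with NACs (-2.97) and rose with NACs in HDAC3f/f BMDMs (2.26), at a median of 0.80 CPM. Human K562 reads that align to the mouse genome could weigh at so low a level, and their part in the Gata2 result was not tested. Of 18 macrophage genes, many of them bound by PU.1 and C/EBP factors, 3 passed between the labels in untreated BMDMs, where Csf2rb (1.60) was higher and Lyz2 (-1.94) and Ptprc (-1.65) lower in HDAC3-/- untreated BMDMs, beside 11.6% of all genes. Lyz2 is also the gene whose promoter drives Cre in the M-HDAC3-/- mice. For Lyz2, here and in the interaction below, HDAC3 genotype and the Cre allele cannot be told apart. With ACs, 2 of 18 passed, beside 3.75% of all genes, Ctss (1.96) and Csf2rb (1.51), both higher in HDAC3-/- BMDMs. Of 7 tested genes of the osteoclast program that MITF serves, 2 passed in each of these comparisons. Dcstamp (3.29) and Mmp9 (2.40) were higher in HDAC3-/- untreated BMDMs and Acp5 (1.72) and Ctsk (1.70) in HDAC3-/- BMDMs with ACs. With NACs in HDAC3f/f BMDMs, where Mitf fell, 3 of 7 rose, Dcstamp (2.46), Mmp9 (2.06) and Acp5 (1.93), beside 4.19% of all genes. These counts are by edgeR, and with the offset 0 genes passed between the untreated labels, between the labels with NACs or for NACs in HDAC3f/f BMDMs, so the calls of those 3 comparisons, Gata2 included, are lost. In the interaction of genotype with NACs or no treatment, 5 of 18 macrophage genes were higher and 2 lower, among them Lyz2 (3.39), Mpeg1 (3.06), Ptprc (2.80) and Cd14 (-1.82), and 1 of 7 osteoclast genes was higher and 3 lower, among them Dcstamp (-5.16), Acp5 (-3.66) and Gpnmb (-2.16), where 34.8% of all genes passed by edgeR. Their part in the interactions of Cebpa, Mitf and Spi1 was not tested.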

How the data were processed

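RNA of 18 BMDM libraries was measured by paired-end RNA-seq. Per the labels' processing notes, the authors trimmed reads with Trimmomatic 0.36, aligned them to GRCm38 with STAR 2.5.2b and counted them on genes with featureCounts of Subread 1.5.2. The deposited values are whole counts for 49315 genes in each library, without normalization. The paper states that aligning to mouse alone kept reads of engulfed human K562 RNA to a minimum. What remained of them in libraries with NACs or ACs was not tested here. The gene annotation release and the strand setting are not given in the sources used here. GC content came from GENCODE M21 transcripts, and 44858 of 49056 shared genes had its coordinates.

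Groups were taken from the labels. For each comparison, edgeR 4.0.16 in R 4.3.3 was run on the libraries of that comparison (filterByExpr with a minimum count of 10 and total of 15, TMM scaling, glmQLFit with robust dispersions, glmQLFTest), and p values were adjusted by the Benjamini-Hochberg method over all genes tested, with a threshold of 0.05. The tests are two-sided. CPM used TMM-scaled totals over all 18 libraries, log2 CPM a prior count of 2. The alternatives were the size factors or the Wald test of DESeq2 1.42.0, library totals alone, no filter, one fit of all 18 libraries, the replicate number as a block, a smooth correction of each library for gene GC content and length (the GC offset, made with mgcv 1.9.3), that correction with the block, and each library left out. The fits were tested on simulated data. Total counts of 4704491 to 26421267 limit precision for genes with few counts, and a count of 0 allows up to 3. The spread between replicates exceeded counting error (chi-squared per gene of 36.2 to 300.4).

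The 9 genes and the lists were chosen with earlier results of these data known. Named are all 9, list genes with an adjusted p under 0.05 (at most 4 per list and comparison), 5 check genes, and for each factor the 3 genes of highest Pearson r. The interaction with NACs or no treatment was added after results were seen.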

Additional observations from a re-analysis of the deposited data

Results flagged for a closer look

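For 3 factors the difference between NACs and no treatment differed between the genotype labels, by an interaction term fitted with edgeR after the treatment effects had been seen. The log2 difference of differences was -2.59 for Cebpa (adjusted p = 0.00199), 2.56 for Mitf (adjusted p = 0.00376) and -1.47 for Spi1 (adjusted p = 0.0260). With NACs, Cebpa rose by 1.42 in HDAC3f/f and fell by 1.28 in HDAC3-/- BMDMs. In this comparison 34.8% of all genes tested passed. With the GC offset, an alternative fit that corrects each library for gene GC content and length, the values were -0.68 for Cebpa, 1.70 for Mitf and -0.07 for Spi1, and none passed, while 1601 genes in all still did. With the offset and the replicate block Mitf passed, at 1.77 (adjusted p = 0.0492 by edgeR). The libraries' GC trends were lower in HDAC3f/f untreated and HDAC3-/- NACs libraries than in the other libraries of these 4 groups, and their part in the result was not tested further. Outliers within groups were not tested, since each group holds 3 libraries.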

How the results depend on the processing

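Among 38 results for single factors (an unadjusted p under 0.05, or a call by DESeq2), 22 kept their side of the threshold and their direction with the Wald test of DESeq2 and 16 were called in addition. The replicate block kept both for 35, the size factors of DESeq2 for 34, no filter for 31, library totals alone for 30 and one fit of all libraries for 29 of 36, and leaving out 1 library for 262 of 318 refits, with no change of direction. With the GC offset 20 kept both, 8 lost the call, 5 gained one and 5 changed direction. Those 5 were Cebpb between labels with NACs (0.19), Irf8 between untreated labels (-0.12), Spi1 with NACs in HDAC3-/- BMDMs (0.079), and Cebpb (1.08) and Irf8 (0.34) in the interaction with NACs or no treatment. EdgeR called none of the 5 without or with the offset, while DESeq2 had called all but Cebpb between labels with NACs. The offset with the replicate block gave 0.29, -0.11, 0.10, 1.12 and 0.33 for them.

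Of the 9 factors, edgeR called 0 between labels with ACs, 0 with NACs, 1 untreated, 0 averaged over treatments, 2 for ACs against NACs in HDAC3-/- BMDMs, 2 for NACs against no treatment in HDAC3f/f and 1 in HDAC3-/- BMDMs, 0 in the interaction with ACs or NACs and 3 in that with NACs or no treatment. In brackets are the calls over all genes. With ACs between labels (461), the size factors of DESeq2 gave 1 (497), its Wald test 2 (1373), no filter 1 (728), the replicate block 1 (373), the offset 3 (1287) and the offset with the block 1 (616). Between untreated labels (1404), the Wald test gave 4 (3314), library totals alone 2 (2405), all 18 libraries in one fit 4 (3308), the offset 0 (0) and the offset with the block 0 (0). For ACs against NACs in HDAC3-/- BMDMs (904), library totals gave 0 (578), one fit 0 (252) and the offset 1 (686). For NACs against no treatment in HDAC3f/f BMDMs (1015), size factors gave 1 (1093), and no filter (454), library totals (0), one fit (0), the offset (0) and the offset with the block (4) gave 0 each. In HDAC3-/- BMDMs (794), size factors gave 0 (0), the Wald test 2 (2309), no filter 2 (1479), the replicate block 0 (0), the offset 0 (0) and the offset with the block 0 (0). In the interaction with ACs or NACs (10), the Wald test gave 3 (762), no filter 2 (537), the offset 1 (278) and the offset with the block 1 (168). Averaged over treatments (197), the Wald test gave 2 (1165), no filter 2 (837), the offset 1 (263) and the offset with the block 1 (113). In the interaction with NACs or no treatment (4530), the Wald test gave 6 (5639), the offset 0 (1601) and the offset with the block 1 (1261), which was Mitf. The cause was not tested.

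With each library left out in turn, the counts were 0 to 3 with ACs (0 to 1693 over all genes), 0 to 3 with NACs (0 to 3121) and 0 to 5 untreated (0 to 5887) between labels, 0 to 3 averaged (1 to 2295), and 0 to 5 for ACs against NACs in HDAC3-/- BMDMs (0 to 3013). They were 0 to 3 for NACs against no treatment in HDAC3f/f (21 to 4232) and in HDAC3-/- BMDMs (0 to 4441), 0 to 3 (0 to 826) and 2 to 5 (3043 to 6297) in the 2 interactions, and 0 in the other 3 comparisons (at most 16). The replicate numbers were not taken to pair the libraries, since in none of the 9 comparisons of 2 groups did all 3 pairs correlate above 0.1. They did, at 0.18 to 0.49, between HDAC3f/f ACs and HDAC3-/- NACs libraries, which enter the averaged comparison and the interaction with ACs or NACs together, and in both the replicate block called 0 of the 9, as without it. Beyond the counts above, the replicate block moved no count of factors by over 1.5 times. Over all genes it moved the calls from 103 to 217 between labels with NACs, from 1015 to 1784 for NACs in HDAC3f/f BMDMs, from 904 to 1400 for ACs against NACs in HDAC3-/- BMDMs, from 0 to 53 for ACs against no treatment in HDAC3f/f BMDMs and from 10 to 152 in the interaction with ACs or NACs.

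Library totals alone moved the median of all genes, from 0.06 to -0.42 between untreated labels, from -0.10 to -0.47 for NACs in HDAC3f/f BMDMs and from 0.12 to 0.70 in the interaction with NACs or no treatment. Depth limits the precision of factors with few counts per library, which were 28 to 382 for Klf4, 52 to 1252 for Bhlhe40 and 107 to 887 for Mitf.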
